A study of Sus scrofa with 3 samples.

Results

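The miR-17-92 cluster and its paralogues were followed in small RNA of psoas major, a loin muscle of mixed fibre types, in pigs aged 63, 98 or 161 d. The members were chosen by name, as every porcine mature form of miR-17, miR-18, miR-19, miR-20, miR-25, miR-92, miR-93, miR-106 and miR-363 with any letter or arm, and 13 of the 276 porcine mature names in the 3 libraries met this rule. The pigs were castrated male Landrace × Large White × Duroc hybrids of the fattening period, fed a diet that was changed with body weight, so that age and diet stage cannot be told apart. RNA of 6 pigs was pooled into 1 library per age, so the libraries had no replicates, and how much pigs of 1 age differ was not measured. The comparison asked whether the other members followed ssc-miR-92a, the most abundant of them, from age to age.

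miR-17-92 is a polycistron, a single primary transcript that is cut into several hairpins, each of which can yield a mature miRNA from its 5p or 3p arm. A related cluster, miR-106a-363, lies on the X chromosome, and a further one, miR-106b-25, carries miR-106b, miR-93 and miR-25. The seed, the stretch of bases 2 to 8 by which a miRNA pairs with its target mRNA, sorts the members into the miR-17, miR-18, miR-19 and miR-92 families. The cluster is best known for promoting proliferation and cell survival, with the pro-apoptotic gene BCL2L11 among its known targets, and miR-92a for its role in blood vessel endothelium.

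The mature sequences, read from the deposited tables, are shown first because the seeds define the families and because several members differ at so few bases that their reads can be confused. Each is written 5′ to 3′ with the seed in capitals. The miR-92 seed was shared by 3 members.
ssc-miR-92a: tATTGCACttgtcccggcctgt
ssc-miR-92b-3p: tATTGCACtcgtcccggcctcc
ssc-miR-363: aATTGCACggtatccatctgtaa
The miR-17 seed was shared by 4 members.
ssc-miR-17-5p: cAAAGTGCttacagtgcaggtag
ssc-miR-20a: tAAAGTGCttatagtgcaggta
ssc-miR-20b: cAAAGTGCtcacagtgcaggtag
ssc-miR-106a: aAAAGTGCttacagtgcaggtagc
The miR-19 seed was shared by 2 members, which differed at 1 base.
ssc-miR-19a: tGTGCAAAtctatgcaaaactga
ssc-miR-19b: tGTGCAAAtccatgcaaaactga
The miR-18 seed was also shared by 2 members.
ssc-miR-18a: tAAGGTGCatctagtgcagata
ssc-miR-18b: tAAGGTGCatctagtgcagttag
The remaining members come from the opposite arms of the miR-17 and miR-92b hairpins, and each had a seed of its own.
ssc-miR-17-3p: aCTGCAGTgaaggcacttgtag
ssc-miR-92b-5p: aGGGACGGgacgcggtgcagtgtt
Counted from 1 at the 5′ end, ssc-miR-19a and ssc-miR-19b differed by T11C. ssc-miR-18a and ssc-miR-18b differed by A20T over the 22 positions compared. ssc-miR-17-5p differed from ssc-miR-20b by T10C, and ssc-miR-106a from ssc-miR-17-5p by A1C over 23 positions. ssc-miR-92a differed from ssc-miR-92b-3p by T10C, G21C and T22C, whereas ssc-miR-363 shared the seed of ssc-miR-92a and differed from it at 12 of 22 positions.

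The hairpins of the members fell into 3 places in the files' genome coordinates, whose build the files do not name. On the plus strand of chromosome 11, 6 hairpins (ssc-mir-17, ssc-mir-18a, ssc-mir-19a, ssc-mir-20a, ssc-mir-19b-1 and ssc-mir-92a-1) lay between 66610056 and 66610846, an extent of 791 bases. On the minus strand of chromosome X, 6 hairpins lay between 126199342 and 126200263, an extent of 922 bases, in the order ssc-mir-106a, ssc-mir-18b, ssc-mir-20b-2, ssc-mir-19b-2, ssc-mir-92a-2 and ssc-mir-363-1 when read along that strand. ssc-mir-92b stood by itself on the minus strand of chromosome 4 at 103407085 to 103407201. All these hairpins are non-coding miRNA genes. The RefSeq gene table of the pig, matched by hairpin name, was used for the chromosomes only, and positions were not compared with it.

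The files listed between 1464699 and 2418187 reads per library, of which 90.1% to 91.2% carried porcine mature names. Levels are given as CPM, counts per 1000000 reads of a library whose size was scaled by TMM, edgeR's trimmed mean of ratios, over the porcine names. Reads of all isoforms were summed over the hairpins of a name, and the 3 reads taken as the detection floor equalled 2.33, 1.22 and 1.60 CPM at 63, 98 and 161 d. The share of the porcine reads taken by the members was 2.56%, 1.35% and 1.12% in the same order. Of the 13 members, 12, 13 and 12 were listed.

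ssc-miR-92a made up nearly all reads of the group in each library. Its reads numbered 31591, 26208 and 20767 with rising age, which is 24540, 10653 and 11060 CPM. Its level at 63 d was thus more than double that of either later age, and the later libraries were close to each other. It ranked 7th among the porcine miRNAs at 63 d and 15th at both later ages. With 95% Wilson intervals, its share of all members' reads was 93.3% (93.05 to 93.58) in the youngest, 88.1% (87.7 to 88.4) in the middle and 90.3% (89.9 to 90.7) in the oldest library. The next member in order, ssc-miR-92b-3p, was 57.0 times lower than ssc-miR-92a at 63 d, 32.5 times lower at 98 d and 25.2 times lower at 161 d.

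From 63 to 98 d the fold of ssc-miR-92a, the later level over the earlier, was 0.434 with a 95% Clopper-Pearson interval of 0.427 to 0.441. Such intervals cover counting error only, and neither they nor the folds are a test of age, because each age had 1 pool. From 98 to 161 d the fold was 1.04 (1.02 to 1.06), and over the whole period 0.451 (0.443 to 0.459). The size of the first step depended on the scaling, with 0.502 when the reads listed in each file were taken as the total. It also rested on the reading of the 63 d table, in which 139 of 1302 rows carry no name and were read as further hairpins of the miRNA above them. Without these rows ssc-miR-92a would have 14952.5 reads at 63 d, from 1 hairpin against both at 98 d, and a fold of 0.840. The undivided reads at the ssc-mir-92a-2 hairpin alone, a row that is named in all 3 tables, were 28508, 23415 and 18784, with a fold of 0.430 (0.422 to 0.437) from 63 to 98 d.

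**Figure D1:**
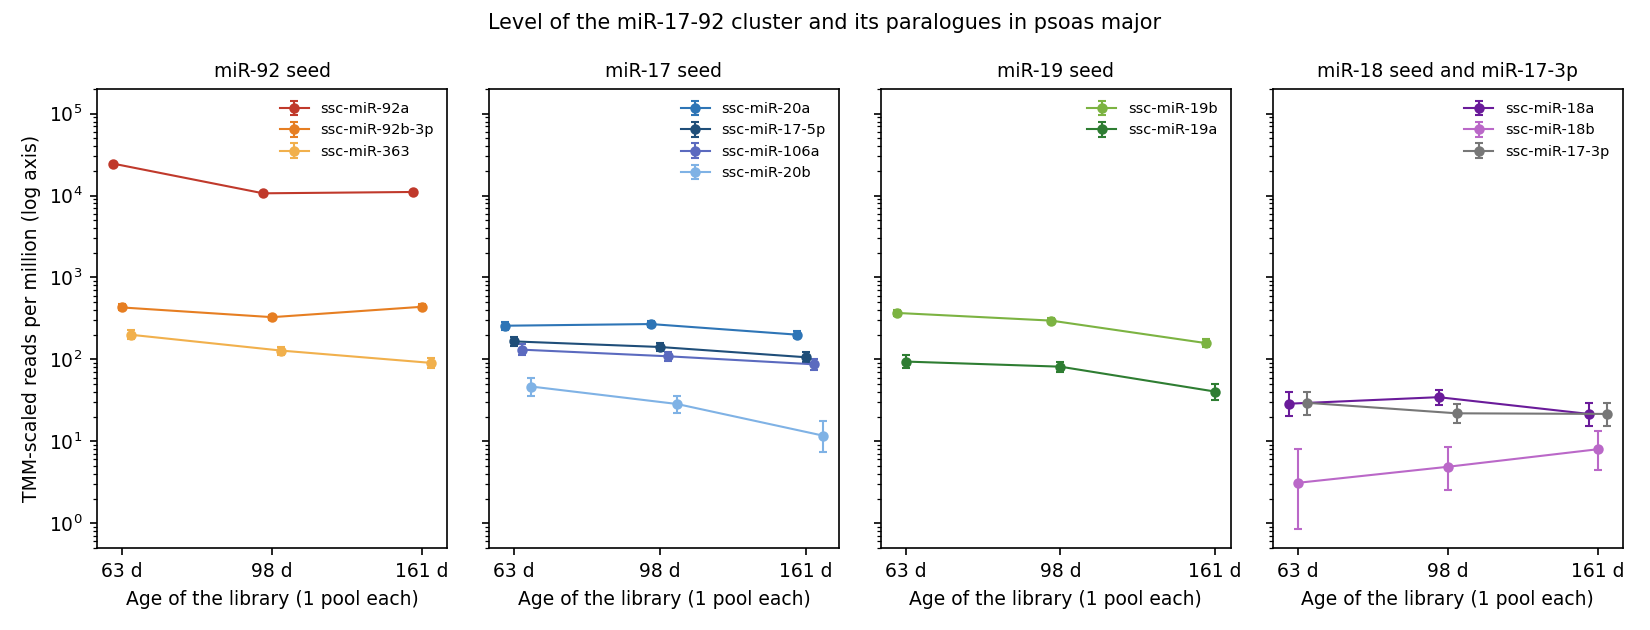
TMM-scaled CPM (log axis) of 12 members in the libraries of 63, 98 and 161 d, 1 pool per age, grouped by seed. Points are libraries and bars are 95% Poisson intervals of the reads. ssc-miR-92a lies at 24540, 10653 and 11060, above every other member in each library, while ssc-miR-92b-5p (at most 1 read) is not drawn.

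The other members of the miR-92 seed kept neither the level nor the course of ssc-miR-92a. ssc-miR-92b-3p, from the separate gene on chromosome 4, had 554, 806 and 824 reads, or 430.3, 327.6 and 438.8 CPM at 63, 98 and 161 d. It was lowest at 98 d, and its intervals at 63 d (395.2 to 467.7) and 161 d (409.4 to 469.9) overlapped. Its fold was 0.761 (0.682 to 0.850) in the first step and 1.34 (1.21 to 1.48) in the second, so that over the whole period it was 1.02 (0.915 to 1.14). ssc-miR-363, the last hairpin of the X cluster, had 257, 315 and 170 reads, or 199.6, 128.0 and 90.5 CPM. It was lower in each library than in the one before, with folds of 0.641 (0.542 to 0.759) and 0.707 (0.583 to 0.855). Over the whole period its fold of 0.454 (0.371 to 0.553) lay beside that of ssc-miR-92a. With TMM scaling, however, the decrease of ssc-miR-92a fell in the first step and that of ssc-miR-363 was divided over both.

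Among the members with the miR-17 seed, ssc-miR-20a was the most abundant. It had 331.5, 664 and 376.3 reads, or 257.5, 269.9 and 200.4 CPM, with a fold of 1.05 (0.916 to 1.198) in the first step and 0.743 (0.652 to 0.843) in the second. Its levels at 63 and 98 d differed by less than their counting error, and 161 d was lower. ssc-miR-17-5p, which gives the cluster its name, had 213.5, 348.7 and 199.3 reads, or 165.8, 141.7 and 106.2 CPM. Its folds were 0.855 (0.718 to 1.02) and 0.749 (0.625 to 0.892). ssc-miR-106a, its counterpart in the X cluster, had 169, 268.2 and 163.3 reads, or 131.3, 109.0 and 87.0 CPM, and folds of 0.830 (0.682 to 1.01) and 0.798 (0.652 to 0.972). For both miRNAs the interval of the first step held 1 with TMM but not with DESeq2 scaling, and 161 d was the lowest library. ssc-miR-20b had only 60, 70.2 and 22 reads, or 46.6, 28.5 and 11.7 CPM. It was lower in each library than in the one before, by folds of 0.612 (0.426 to 0.877) and 0.411 (0.243 to 0.673), and its fold over the whole period, 0.251 (0.147 to 0.416), was the smallest of the 11 members with at least 20 reads in that pair.

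The miR-19 members were lower at 161 d than at either earlier age. ssc-miR-19b had 475, 731.7 and 297 reads, or 369.0, 297.4 and 158.2 CPM, and ssc-miR-19a 121, 200.3 and 76 reads, or 94.0, 81.4 and 40.5 CPM. From 63 to 98 d the fold of ssc-miR-19b was 0.806 (0.718 to 0.907) and that of ssc-miR-19a 0.866 (0.687 to 1.09). Without the unnamed rows of the 63 d table, which hold a hairpin of ssc-miR-19b, the first of these would be 1.47. That value sets 1 hairpin at 63 d against both at 98 d. With the hairpin row with most reads at each age the fold of ssc-miR-19b was 0.7735, and with copies of the most frequent read 0.7725. Its direction in this step was thus kept when like was compared with like. From 98 to 161 d the fold of ssc-miR-19b was 0.532 (0.463 to 0.609) and that of ssc-miR-19a 0.497 (0.377 to 0.652). The 2 miRNAs, which lie in 1 cluster on chromosome 11 and of which ssc-miR-19b has a further hairpin on chromosome X, thus had overlapping intervals in each step. Summed, the miR-19 seed went from 463.0 to 378.8 and 198.7 CPM, with a fold of 0.524 (0.464 to 0.592) in the second step.

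The miR-18 members and the opposite arms were scarce. ssc-miR-18a had 37, 85 and 40.5 reads, or 28.7, 34.6 and 21.6 CPM, with a fold of 1.202 (0.808 to 1.82) in the first step and 0.624 (0.412 to 0.908) in the second. ssc-miR-18b had 4, 12 and 15 reads, too few for a direction, since its fold from 98 to 161 d had an interval of 0.716 to 3.83. ssc-miR-17-3p had 38, 54 and 40.5 reads, and the intervals of all its folds held 1. ssc-miR-92b-5p was seen as 1 read at 98 d and as 0 reads at 63 and 161 d, where a count of 0 allows up to 2.33 and 1.60 CPM.

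**Figure D2:**
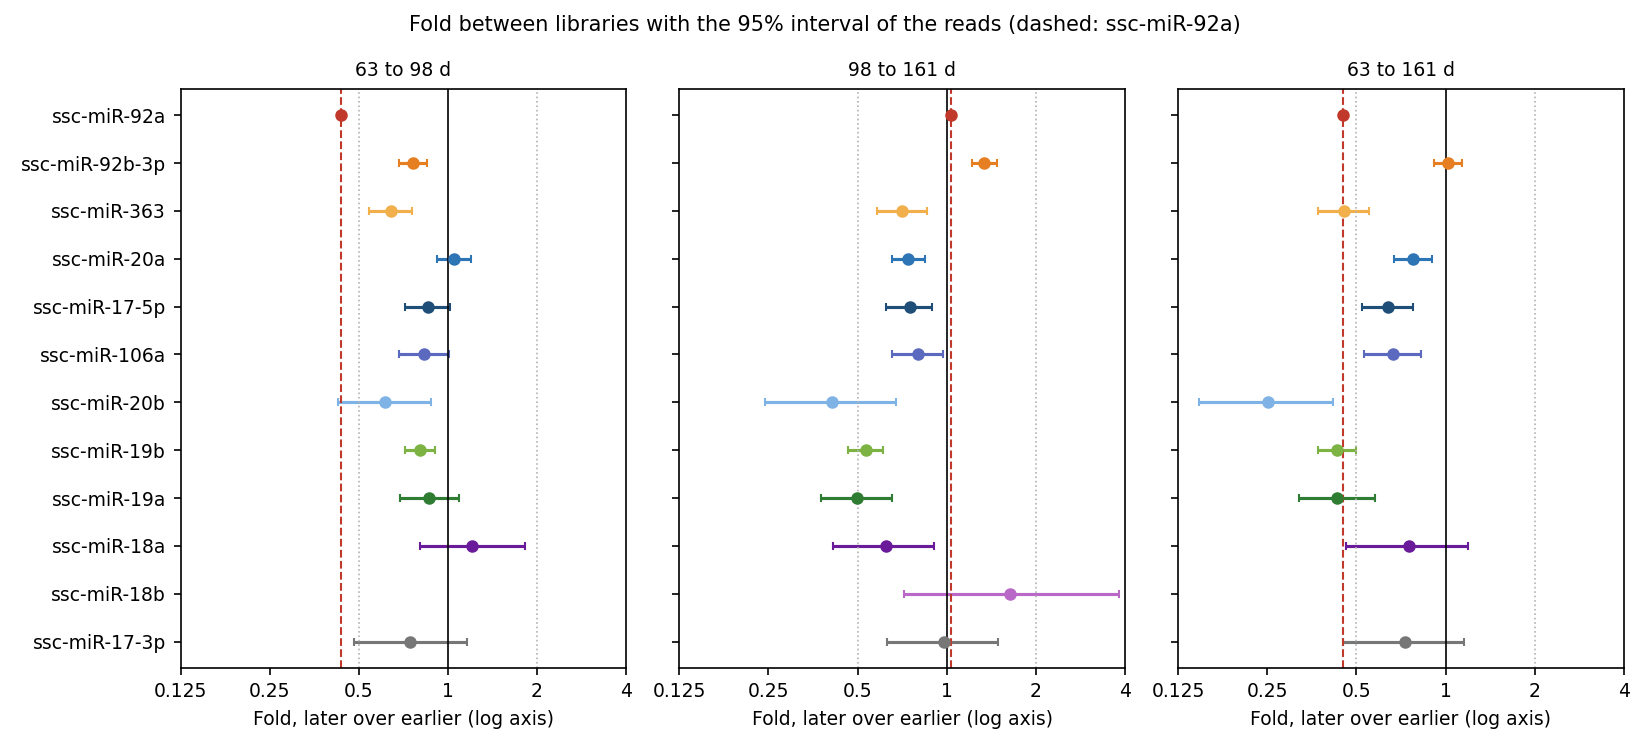
Fold between libraries (later over earlier, log axis) of each member with at least 20 reads in the pair, for 63 to 98, 98 to 161 and 63 to 161 d. Bars are 95% Clopper-Pearson intervals, dotted lines mark 0.5 and 2, and the dashed line is ssc-miR-92a at 0.434, 1.04 and 0.451. Most members lie to the right of the dashed line in the first panel and to its left in the second.

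With a limit of 2-fold and at least 20 reads in the pair, only ssc-miR-92a of 11 members was lower from 63 to 98 d, beside 7.23% of the 235 porcine names with enough reads. Between the later ages, ssc-miR-19a and ssc-miR-20b were lower among 12 members, beside 6.69% of 239 names, and the fold of ssc-miR-19a, 0.497, lay at the limit. From 63 to 161 d, 5 of 11 members were lower (ssc-miR-92a, miR-363, miR-19a, miR-19b and miR-20b), beside 9.48% of 232 names, and without the unnamed rows at 63 d only 3 members were. No member was 2-fold higher in any pair, beside 7.66%, 5.02% and 7.33% of the names. The median fold of the members was 0.806, 0.746 and 0.640 in the 3 pairs, and that of all names with enough reads 1.05, 0.983 and 1.04. With the reads listed in each file as the total, the split of all names into 2-fold higher and lower moved from 18 and 17 to 29 and 8 in the first step, and from 12 and 16 to 6 and 26 in the second. All 3 pairs share libraries, so these counts are not independent of each other.

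Whether a member followed ssc-miR-92a in direction was read from its interval. From 63 to 98 d the interval lay below 1 for 5 of 11 members, ssc-miR-92a, miR-92b-3p, miR-363, miR-19b and miR-20b, beside 29.8% of all names. For the other 6 it held 1, and for none was it above 1, beside 38.7%. With DESeq2 scaling it lay below 1 for 7 of 11, ssc-miR-17-5p and ssc-miR-106a being added, beside 34%. In the second step, when ssc-miR-92a was near 1, the interval lay below 1 for 8 of 12 members (ssc-miR-17-5p, miR-18a, miR-19a, miR-19b, miR-20a, miR-20b, miR-106a and miR-363), beside 34.3%. It lay above 1 for ssc-miR-92a and ssc-miR-92b-3p, beside 28.5%. Over the whole period it lay below 1 for 8 of 11 members, beside 35.8%, and above 1 for none, beside 37.5%. In a scaling to the reads listed in each file all folds of the first step were 1.16 times larger and those of the second 0.823 times as large, a shift of 0.21 and -0.28 on the log2 scale, and ssc-miR-92a then had a fold of 0.854 from 98 to 161 d. Under that scaling the interval lay below 1 for 3 of 11 members in the first step, beside 21.7% of all names, and above 1 for ssc-miR-20a, beside 48.5%. In the second it lay below 1 for 9 of 12, beside 55.6%, and above 1 for none, so that the call of ssc-miR-92b-3p was lost as well. The 8 members below 1 from 98 to 161 d were also below 1 under each of the 4 other scalings tried, and the direction of ssc-miR-92a in that step was not settled. Its distance from the other members, given next, does not depend on the scaling. It changed when the unnamed rows at 63 d were left out, which drops 1 hairpin each of ssc-miR-92a and ssc-miR-19b at that age only. With the hairpin row with most reads at each age, the ratio of the 12 others summed to ssc-miR-92a was 1.89 from 63 to 98 d. It was 1.81 with copies of the most frequent read, against 1.90 with all rows.

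The fold of each member was divided by that of ssc-miR-92a in the same pair, which cancels the library totals. From 63 to 98 d the ratio was above 1 for all 10 other members with enough reads, from 1.41 for ssc-miR-20b (95% interval 0.981 to 2.02) to 2.77 for ssc-miR-18a (1.86 to 4.19), and the interval lay above 1 for 9 of them. The same held for 85.5% of the 234 other porcine names, so that it described ssc-miR-92a rather than its relatives. The median ratio was 1.89 over the 10 members and 2.42 over all names. With copies of the most frequent read, ssc-miR-18a had a ratio of 1.805, under its interval but above 1. ssc-miR-106a had 1.91 (1.57 to 2.33) with all reads and 1.22 with error-free reads. From 98 to 161 d the interval lay below 1 for 8 of 11 members, beside 36.6% of 238 names, and above 1 for ssc-miR-92b-3p at 1.29 (1.17 to 1.43), beside 24.8%. The lowest ratios in this step were 0.396 for ssc-miR-20b (0.234 to 0.649), 0.479 for ssc-miR-19a (0.363 to 0.628) and 0.512 for ssc-miR-19b (0.445 to 0.588). The members whose ratio held 1 in the second step were ssc-miR-17-3p (0.605 to 1.43) and ssc-miR-18b (0.689 to 3.69).

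Over the whole period 3 members had a ratio to ssc-miR-92a close to 1, with 1.01 for ssc-miR-363 (0.823 to 1.23), 0.956 for ssc-miR-19a (0.707 to 1.28) and 0.951 for ssc-miR-19b (0.819 to 1.10). They did so by another course, since each of them differed from ssc-miR-92a upwards in the first step and downwards in the second. Without the unnamed rows of the 63 d table the ratios over the whole period would be 0.476, 0.452 and 0.897, and in the first step those of ssc-miR-363 and ssc-miR-19a would be 0.699 and 0.945. The interval lay above 1 for 6 of 10 members, beside 83.1% of 231 names, with 2.26 for ssc-miR-92b-3p (2.03 to 2.53) as the highest. It lay below 1 for ssc-miR-20b, beside 3.03%. Summed, the 12 other members had 2260, 3556 and 2224 reads, or 1756, 1445 and 1184 CPM. Their summed fold over that of ssc-miR-92a was 1.90 (1.795 to 2.004), 0.789 (0.746 to 0.835) and 1.497 (1.41 to 1.59) in the 3 pairs.

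**Figure D3:**
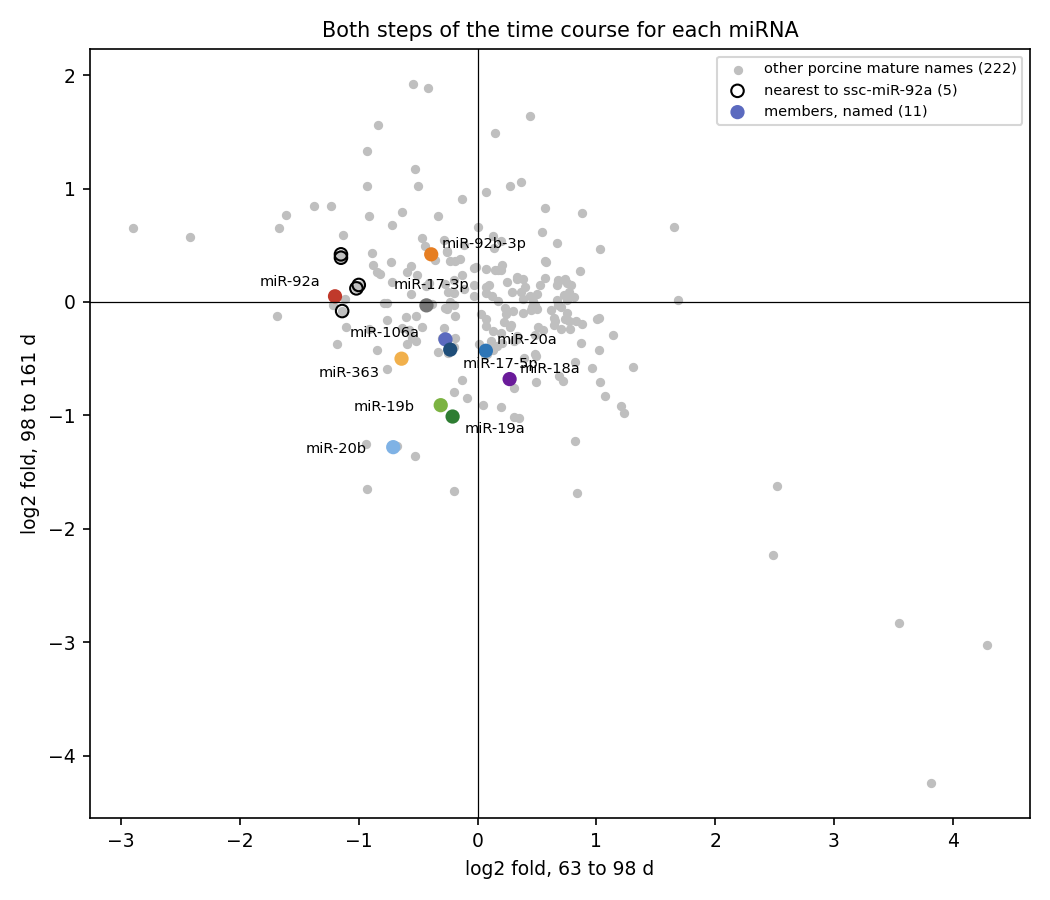
log2 fold from 98 to 161 d against log2 fold from 63 to 98 d for each porcine mature name with at least 20 reads in both pairs, with the members named and coloured. Circles mark the 5 miRNAs nearest to ssc-miR-92a, none of which is a member. ssc-miR-92a lies at the left, just above the horizontal line, and most other members lie below the horizontal line and nearer to the vertical one.

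Of 144 other porcine miRNAs with at least 100 reads in each library, those nearest to ssc-miR-92a in both steps (Euclidean distance between the pairs of log2 folds, over 3 libraries) were ssc-miR-127, miR-378, miR-1343, miR-28-3p and miR-423-3p. Their distances were 0.14, 0.20, 0.23, 0.34 and 0.37. ssc-miR-378, a miRNA of energy metabolism, was the only one of them more abundant than ssc-miR-92a, with 55701, 27540 and 29929 CPM. The members with enough reads came later in this order, at place 27 for ssc-miR-363, 31 for ssc-miR-92b-3p, 40 for ssc-miR-106a, 48 for ssc-miR-17-5p, 66 for ssc-miR-19b and 67 for ssc-miR-20a. As a description of both steps together, 7 of 11 members had a fold under 1 in each step (63.6%), and so had 47 of 233 porcine names (20.2%). This count leaves out the intervals, which lay below 1 in both steps only for ssc-miR-19b, miR-20b and miR-363. Among the 7 are also ssc-miR-17-5p and ssc-miR-106a, which largely rest on the same reads.

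Because ssc-miR-92a and ssc-miR-19b each come from a hairpin on chromosome 11 and another on X, the reads were also viewed by hairpin. The first 30 bases from the start of the mature sequence are shown for each hairpin. The bases that follow the mature end are in capitals, since within this stretch the hairpins differ only among these.
ssc-mir-92a-1: tattgcacttgtcccggcctgtTGAGTTTG
ssc-mir-92a-2: tattgcacttgtcccggcctgtGGAAGAAA
ssc-mir-19b-1: tgtgcaaatccatgcaaaactgaCTGTGGT
ssc-mir-19b-2: tgtgcaaatccatgcaaaactgaTTGTGAT
The mature parts were identical, and the hairpins parted at the next base. With rising age, 85.8%, 84.8% and 86.5% of the ssc-miR-92a reads fitted both hairpins and had been divided between them. Reads that fitted ssc-mir-92a-1 alone numbered 3083, 2793 and 1983, and those that fitted ssc-mir-92a-2 alone 1397, 1200 and 818. In each library more reads thus fitted only the chromosome 11 hairpin than only that on X. From 63 to 98 d the fold was 0.474 (0.450 to 0.499) for the first and 0.450 (0.416 to 0.486) for the second, near the 0.429 (0.421 to 0.437) of the shared reads. In the second step the folds of the placed reads were 0.930 (0.878 to 0.986) and 0.893 (0.816 to 0.977), below the 1.06 (1.04 to 1.08) of the shared reads. The decrease of the first step was therefore present in the reads placed at each hairpin. The small change of the second was not of the same sign in placed and shared reads. The placement rests on bases after the mature end, and whether the placed reads come from the locus they fitted was not tested. Whether they stand for all reads of that locus was not tested either. For ssc-miR-19b at least 98.3% of the reads fitted both hairpins, so that the loci could not be told apart.

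**Figure D4:**
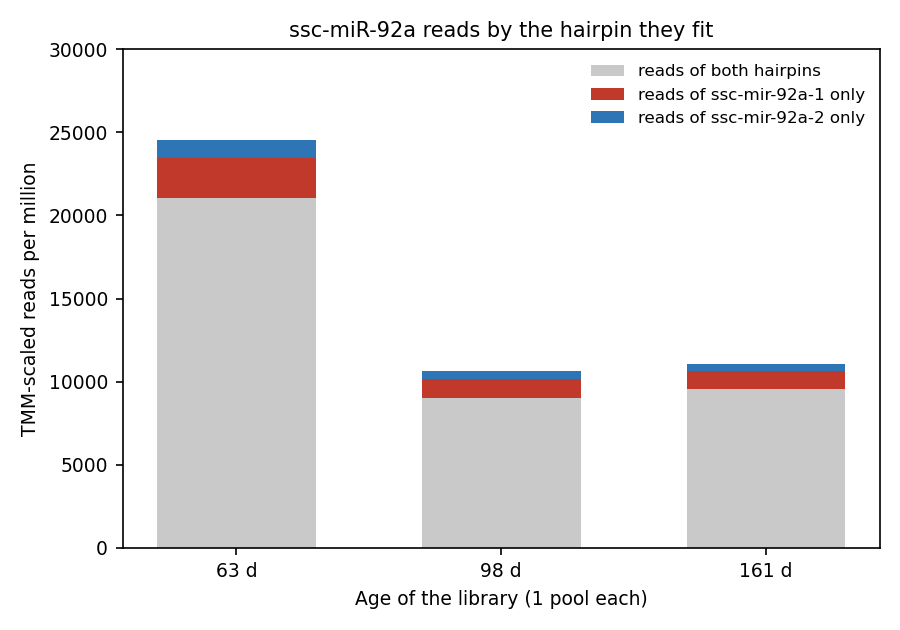
TMM-scaled CPM of ssc-miR-92a in each library, stacked by whether the read fitted both hairpins (grey), only ssc-mir-92a-1 on chromosome 11 (red) or only ssc-mir-92a-2 on chromosome X (blue). Grey makes up 85.8%, 84.8% and 86.5% of the bars at 63, 98 and 161 d.

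The same division touched ssc-miR-17-5p and ssc-miR-106a, which part at the first base. The most frequent read listed for ssc-miR-106a in each library was cAAAGTGCttacagtgcaggtag, the sequence of ssc-miR-17-5p itself, which the files annotate as ssc-miR-106a with A1C and 1 base fewer at the 3′ end. Of the 352, 574 and 338.5 reads that fitted ssc-miR-17-5p at 63, 98 and 161 d, 60.6%, 60.7% and 58.9% were assigned to it. Reads of ssc-miR-106a without a mapping error numbered only 33, 33 and 20, which is 19.5% (14.3 to 26.1), 12.3% (8.90 to 16.8) and 12.2% (8.08 to 18.2) of its total. Of the 307, 494 and 301 reads that fitted ssc-miR-106a, 55.05%, 54.28% and 54.26% were assigned to it. The similar course of ssc-miR-106a and ssc-miR-17-5p thus largely rests on the same reads. They are not independent of each other in the counts of members given above. With error-free reads alone the fold of ssc-miR-106a over that of ssc-miR-92a from 63 to 161 d was 0.919 instead of 1.47. For ssc-miR-20b at 161 d the most frequent read, cAAAGTGCtcatagtgcaggtag, carried C12T, and 4 of its 22 reads were without error (18.2%, interval 7.31 to 38.5), compared with 35 of 60 at 63 d (58.3%, 45.7 to 69.9). The read with C12T is also the known sequence listed as eca-miR-20b, a miR-20b of another species. The ssc-miR-20b reads at 161 d thus fitted the porcine sequence less well than those at 63 d, and their origin was not tested.

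The most frequent read of ssc-miR-92a, miR-92b-3p, miR-17-5p, miR-19a and miR-19b equalled the known sequence in each library, and for ssc-miR-92a it had 23238, 18880 and 15335 copies. ssc-miR-18a and ssc-miR-20a were read 1 base longer at the 3′ end in all libraries, and ssc-miR-363 and ssc-miR-17-3p 2 bases shorter. ssc-miR-18b, with 4, 12 and 15 reads, was read 2 bases shorter at 63 d and 3 bases shorter at both later ages. The share of ssc-miR-92a reads without a mapping error was 83.0%, 82.0% and 83.3%.

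Each hairpin kept its main arm at all ages. The 5p arm led for miR-17, miR-18a, miR-18b, miR-20a, miR-20b and miR-106a, and the 3p arm for miR-19a, miR-19b, miR-92a, miR-92b and miR-363. For ssc-mir-17, ssc-miR-17-3p made up 15.1% (11.2 to 20.02), 13.4% (10.4 to 17.1) and 16.9% (12.5 to 21.9) of the reads with rising age, with overlapping intervals. These shares rest on the divided reads of ssc-miR-17-5p, 213.5 of the 352 that fitted it at 63 d. For ssc-mir-18a the minor arm, listed under a hamster name, had 6, 7 and 9 reads, or 13.95% (6.56 to 27.3), 7.61% (3.73 to 14.9) and 18.2% (9.77 to 30.8). For ssc-mir-20a the minor arm, listed under a mouse name, took 4.88%, 4.598% and 4.56%. For ssc-mir-92a-1 it was 10, 6 and 3 reads, at most 0.0601% of the hairpin's reads.

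No porcine mature name of miR-25, miR-93 or miR-106b was present, and the miR-106b-25 cluster was seen only through names of other species. There were 22 such names with the numbers of the group, 12 of them under 20 reads in all, and 3 unannotated arms with at most 2 reads each. The 3 most abundant were bta-miR-25, age-miR-93 and mmu-miR-92a-3p, whose most frequent reads are shown because they carry seeds of the group. Of the reads under the first 2 names, 99.5% and all stood in rows that the files place neither by hairpin nor by read on the pig genome.
bta-miR-25: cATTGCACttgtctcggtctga
age-miR-93: cAAAGTGCtgttcgtgcaggt
mmu-miR-92a-3p: tATTGCACttgtcccggcctga
bta-miR-25, with the miR-92 seed, had 1738, 1326 and 1283 CPM at 63, 98 and 161 d, more than any porcine member but ssc-miR-92a. Its folds were 0.763 (0.723 to 0.806) and 0.967 (0.917 to 1.02). age-miR-93, with the miR-17 seed, had 734.8, 563.0 and 651.9 CPM and folds of 0.766 (0.705 to 0.833) and 1.16 (1.07 to 1.25). Over the fold of ssc-miR-92a from 63 to 98 d these were 1.758 (1.66 to 1.86) and 1.765 (1.62 to 1.92), inside the range of the porcine members. bta-miR-106b, named after its values were seen because it is the other miRNA of that cluster, had 227.6, 236.6 and 163.5 CPM, with 37.2% of its reads in such rows. mmu-miR-92a-3p held reads like ssc-miR-92a that end in another base, with 483.2, 221.5 and 224.8 CPM. Its fold over that of ssc-miR-92a was 1.06 (0.939 to 1.19) in the first step and 0.977 (0.857 to 1.11) in the second.

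Markers of the cells in the muscle moved in several directions beside these values, and their part in the results was not tested. Here, fewer cells of a type and less of a miRNA per cell cannot be told apart. All 6 miRNAs taken as muscle markers were listed, and their summed level was 511821, 393623 and 556017 CPM at 63, 98 and 161 d, of which ssc-miR-133a-3p made up most. Only that one was lower at 98 d than at 63 d, whereas ssc-miR-1 (2.21), miR-208b (1.84) and miR-499-5p (1.41) were among the 5 with a fold above 1, and 4 of the 6 were lower at 161 d than at 98 d. The 3 red blood cell markers summed to 45497, 39484 and 50140, most of it ssc-miR-486, which muscle also makes, while ssc-miR-451 had 856.0, 1343 and 1195. From 63 to 98 d ssc-miR-486 alone of the 3 was lower. Of 5 white blood cell markers 4 were listed, with sums of 1349, 1595 and 1300, and ssc-miR-223 was not listed. Of the 4, only ssc-miR-150 (0.8115) was lower at 98 d than at 63 d, and all 4 were lower at 161 d than at 98 d. The 2 endothelial arms of miR-126 summed to 6637, 9602 and 8073, with a fold of 1.45 from 63 to 98 d, when ssc-miR-92a had 0.434. That fold was 1.627 for ssc-miR-126-5p, which made up most of the sum, and 1.145 for ssc-miR-126-3p. Over the whole period the 2 arms parted, with 1.375 and 0.9505 in the same order. The 2 smooth muscle markers summed to 10672, 11622 and 32481, most of it ssc-miR-143-3p. From 63 to 98 d they parted, with folds of 1.11 for ssc-miR-143-3p and 0.693 for ssc-miR-145-5p. Both were higher at 161 d than at 98 d.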

How the data were processed

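The labels map each library to its age. The authors pooled total RNA of 6 pigs per age, sequenced small RNA libraries on an Illumina HiSeq 2000 and ran ACGT101-miR 4.2 against miRBase hairpins and the pig genome, whose build is not given in the sources used here. The values used are the deposited expected counts for each hairpin arm, with every isoform included, in which the authors divided reads that fit several hairpins. The tables also give counts, the copies of the most frequent read, deposited without normalization.

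Rows without a name in the 63 d table took the name above, since each shared its known miRNA. Expected counts were summed over hairpins, rounded for intervals, and scaled with edgeR 4.0.16 (TMM, 276 porcine names). Folds carry 95% Clopper-Pearson intervals. Ratios to ssc-miR-92a carry conditional exact intervals, or log-normal ones for names above 4000 reads in the pair. No p-value was computed. The fold step was tested on simulated data. DESeq2 1.42.0 served as an alternative scaling, with Python 3.11.15 and scipy 1.17.1 for the rest. Every member is named, with the 3 most abundant names of other species and the 5 porcine names nearest to ssc-miR-92a. Members and marker lists were chosen with earlier results of these data known.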

Additional observations from a re-analysis of the deposited data

How the results depend on the processing

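No paired analysis was possible because each age had 1 library. Scaling and counting moved the fold of ssc-miR-92a by more than its counting interval, without changing its direction from 63 d. From 63 to 98 d it was 0.413 with DESeq2 scaling, 0.502 with the reads listed in each file, 0.469 with TMM over known names of any species, 0.414 at the hairpin with most reads and 0.418 with copies of the most frequent read. From 98 to 161 d these gave, except for the hairpin with most reads, 1.06, 0.854, 1.01 and 1.10, error-free reads gave 1.07, and the porcine total without ssc-miR-133a-3p gave 0.993. From 63 to 161 d the values were 0.437 with DESeq2, 0.429 with file totals, 0.426 without ssc-miR-133a-3p, 0.476 with TMM over known names, 0.434 at the hairpin with most reads and 0.471 with error-free reads. The ratio of the 12 others to ssc-miR-92a became 0.743 (98 to 161 d) and 1.39 (63 to 161 d) with error-free reads, and 1.38 (63 to 161 d) with copies.

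Reading only the named rows of the 63 d table, an alternative chosen after seeing the data, gave ssc-miR-92a 0.840 from 63 to 98 d and 0.872 from 63 to 161 d, and the summed ratio 1.00 and 0.791. The single ratios then turned below 1 from 63 to 98 d for ssc-miR-106a (0.905), miR-17-3p (0.811), miR-17-5p (0.932), miR-19a (0.945), miR-20b (0.667), miR-363 (0.699) and miR-92b-3p (0.830). From 63 to 161 d they did so for ssc-miR-106a (0.696), miR-17-3p (0.767), miR-17-5p (0.672), miR-18a (0.788), miR-20a (0.817) and miR-363 (0.476), while miR-19a (0.452), miR-19b (0.897) and miR-20b (0.264), below 1 before, stayed so. At 63 d, 1 hairpin each of ssc-miR-92a and ssc-miR-19b has no name, so this reading set 1 hairpin at 63 d against both at the later ages. At the hairpin row with most reads the summed ratio was 1.89 from 63 to 98 d and 1.56 from 63 to 161 d. With named rows only, the fold of ssc-miR-19b became 1.47 from 63 to 98 d and 0.782 from 63 to 161 d. With them, 3 instead of 5 members were 2-fold lower over the whole period. From 63 to 161 d the ratio of ssc-miR-106a was 0.919 with error-free reads, and that of ssc-miR-20b was 1.496 when its seed family was summed.

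Counts of porcine names 2-fold higher and lower were 18 and 17 (63 to 98 d), 12 and 16 (98 to 161 d), and 17 and 22 (63 to 161 d). With file totals they were 29 and 8 in the first pair and 6 and 26 in the second. Without a minimum of reads 33, 22 and 29 were higher in the 3 pairs and 27 lower in the second. With a minimum of 100 reads 10, 6 and 11 were higher and 11, 10 and 13 lower, and with a limit of 1.5-fold 52, 30 and 53 higher and 46, 33 and 55 lower. With named rows only, 29 were higher from 63 to 161 d. Depth limited ssc-miR-18b, ssc-miR-92b-5p and the minor arms.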
